A study of Mus musculus with 16 samples.

Results

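The transcripts of 9 cathepsins (Ctss, Ctsb, Ctsc, Ctsd, Ctsl, Ctsw, Ctsz, Ctsa and Ctsh) and of cystatin F (Cst7) were followed in tumor-infiltrating lymphocytes (TILs). These 10 genes were taken by gene name from a count table of 55450 genes, 1 row for each. CD4+ and CD8+ TILs came from s.c. tumors of B16F10, a melanoma line of C57BL/6 mice, grown in WT (C57BL/6J) mice or in Sirt2-/- mice (B6.129-Sirt2tm1.1Fwa/J). The knockout strain lacks the deacetylase SIRT2 in the germline, so that host cells other than T cells lacked it too. Mice were 7 to 8 weeks old and matched for age and sex. Each of the 4 groups (WT CD4+, Sirt2-/- CD4+, WT CD8+ and Sirt2-/- CD8+) had 4 libraries of total RNA. T cells had been drawn from digested tumors with beads against CD3ε, and how CD4+ and CD8+ cells were then separated is not given in the sources used here.

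Cathepsins are proteases of endosomes and lysosomes. Most of this set are cysteine proteases of the papain family (Ctss, Ctsb, Ctsc, Ctsl, Ctsw, Ctsz and Ctsh), whereas cathepsin D is an aspartic protease and cathepsin A a serine carboxypeptidase. In antigen-presenting cells cathepsin S trims the invariant chain of MHC class II. In cytotoxic lymphocytes cathepsin C removes the dipeptide that keeps granzymes inactive, cathepsin W is a protease found mainly in cytotoxic T and NK cells, and cystatin F is an inhibitor that reaches lysosomes and acts on cathepsin C and other cysteine cathepsins.

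Levels are given as CPM, a count relative to the TMM-scaled total of its library at a common depth, and levels of different genes are compared as CPM per kilobase (kb) of exon. The exon length is the union of all annotated exons of a gene, and the order of genes per kb depends on it. Total counts per library ranged from 28000949 to 62407851. In 3 libraries fewer than 15000 genes had a count: 8169 in Sirt2-/- CD4+ replicate 4, 12587 in replicate 1 of WT CD4+ and 14411 in replicate 1 of WT CD8+ TILs, against 17730 to 22138 in the other 13. They are called sparse libraries here, and results that rest on them are given with and without them. Sirt2 itself was at 40.7 to 75.6 CPM in WT and 0 to 12.2 CPM in Sirt2-/- CD4+ TILs, and at 33.4 to 51.5 and 6.53 to 10.3 CPM in WT and Sirt2-/- CD8+ TILs. Cd4 was at 384 to 620 CPM in CD4+ libraries and at most 4.93 CPM in CD8+ libraries, and Cd8a was at 1003 to 1261 CPM in CD8+ libraries and at most 33.4 CPM in CD4+ libraries. Sirt2 was lower in every knockout than in every WT library of the same cell type. The sum of 14 T cell markers was 3069 to 5370 CPM. The sum of 15 macrophage and monocyte markers was far lower, but higher in every Sirt2-/- than in every WT CD8+ library. It reached 13.9 CPM at most in WT CD8+ and 23.5 CPM in WT CD4+ libraries, and was 15.7, 32.0, 15.2 and 69.9 CPM in Sirt2-/- CD8+ and 20.0, 38.1, 77.4 and 149 CPM in Sirt2-/- CD4+ replicates 1 to 4. Lyz2 was at 0 to 11.6 CPM and Csf1r at 0 to 5.25 CPM over the 16 libraries.

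Ctsw and Cst7 were the members that most separated CD8+ from CD4+ TILs. Ctsw (ENSMUSG00000024910.5) lies at chr19:5465043-5468507 on the minus strand of GRCm38. In WT mice it was at 402, 273, 285 and 337 CPM in CD8+ and at 96.5, 67.5, 77.5 and 86.7 CPM in CD4+ replicates 1 to 4. The knockout CD8+ libraries held 293, 303, 324 and 232 CPM, and the knockout CD4+ libraries 72.5, 59.2, 57.7 and 0.0179 CPM. Every CD8+ library was above every CD4+ library in both genotypes. The value of 0.0179 CPM, in the sparsest library, was a single read, while the same library held 17749 reads of Ctss.

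Cst7 (ENSMUSG00000068129.5) lies at chr2:150570415-150578944 on the plus strand. It was at 42.3, 54.2, 60.1 and 62.1 CPM in WT CD8+ and at 56.0, 56.7, 75.9 and 72.9 CPM in Sirt2-/- CD8+ replicates 1 to 4. WT CD4+ libraries held 14.2, 14.3, 13.3 and 10.5 CPM, and Sirt2-/- CD4+ libraries 6.69, 14.6, 15.1 and 0.0179 CPM, the last again a single read of the sparsest library. Like cathepsin W, the cystatin was higher in every CD8+ than in every CD4+ library of both genotypes. Both genes are also expressed by NK cells, and the sum of 6 NK cell markers was higher in CD8+ (20.8 to 54.1 CPM) than in most CD4+ libraries (0.0179 to 26.4 CPM), with 0 to 3 of the 6 at 0 in CD8+ and 0 to 5 in CD4+ libraries. Their part in the levels of Ctsw and Cst7 was not tested.

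Ctsc (ENSMUSG00000030560.17, chr7:88278085-88310888, plus strand), the protease that activates granzymes, was at 84.2, 74.9, 94.0 and 73.1 CPM in WT CD8+ and at 23.7, 49.6, 46.5 and 29.8 CPM in WT CD4+ libraries. Its Sirt2-/- levels were 77.8, 59.0, 97.1 and 69.2 CPM in CD8+ and 43.9, 42.5, 48.9 and 22.4 CPM in CD4+ libraries. Ctsd (ENSMUSG00000007891.16, chr7:142375911-142388038, minus strand), the aspartic protease of lysosomes, was at 154, 161, 151 and 171 CPM in WT CD8+ and at 66.4, 82.0, 71.8 and 74.3 CPM in WT CD4+ libraries. Both genes were higher in each CD8+ library than in any CD4+ library, and for Ctsd this held in Sirt2-/- mice with 145, 134, 202 and 130 CPM against 67.6, 52.7, 66.4 and 105 CPM.

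Ctss (ENSMUSG00000038642.10) lies at chr3:95526786-95556403 on the plus strand and had the highest level per kb of all 10 genes in CD4+ TILs. WT CD4+ libraries held 213, 308, 294 and 287 CPM and Sirt2-/- CD4+ libraries 381, 334, 306 and 318 CPM. CD8+ libraries held 86.4, 188, 203 and 201 CPM in WT and 286, 238, 203 and 204 CPM in Sirt2-/- mice. Ctss was thus lower in CD8+ TILs in both genotypes, without overlap, but far from absent there.

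Ctsb, Ctsz and Ctsa were higher in CD4+ than in CD8+ TILs of WT mice. Ctsb (ENSMUSG00000021939.8, chr14:63122462-63145923, plus strand), a cysteine protease that acts as an endopeptidase and a carboxydipeptidase, was at 110, 196, 165 and 126 CPM in WT CD4+ and at 56.4, 104, 87.3 and 108 CPM in WT CD8+ libraries. Its Sirt2-/- libraries held 125, 167, 188 and 264 CPM in CD4+ and 94.6, 99.6, 126 and 119 CPM in CD8+ TILs, where the ranges overlapped. Ctsz (ENSMUSG00000016256.10, chr2:174427493-174439039, minus strand), a cysteine carboxypeptidase, was at 36.2, 45.2, 44.2 and 48.0 CPM in WT CD4+ and at 15.97, 24.3, 20.3 and 25.5 CPM in WT CD8+ libraries. The spread of Ctsz was wide in Sirt2-/- mice, with 25.1, 39.2, 60.0 and 13.1 CPM in CD4+ and 24.9, 32.6, 20.2 and 36.3 CPM in CD8+ libraries.

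Ctsa (ENSMUSG00000017760.16, chr2:164832873-164841032, plus strand), the carboxypeptidase that also stabilizes lysosomal neuraminidase and β-galactosidase, was at 75.2, 80.4, 73.1 and 63.8 CPM in WT CD4+ and at 56.0, 48.0, 44.6 and 54.5 CPM in WT CD8+ libraries. Sirt2-/- CD4+ replicates 1 to 3 held 77.7, 81.5 and 94.3 CPM and replicate 4 held no read, which allows up to 0.0537 CPM. Sirt2-/- CD8+ libraries held 65.8, 61.1, 59.7 and 64.0 CPM. Apart from the library with no read, Ctsa was higher in every CD4+ library than in any CD8+ library of the same genotype.

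Ctsl (ENSMUSG00000021477.9, chr13:64359337-64370890, minus strand), known for class II processing in the thymic epithelium, stayed between 0 and 11.7 CPM. Ctsh (ENSMUSG00000032359.14, chr9:90054152-90076089, plus strand), an aminopeptidase, stayed between 0 and 3.39 CPM. Their ranges overlapped between the cell types in both genotypes. Ctsh did not pass the filter on low counts in the WT comparison of cell types.

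**Figure D1:**
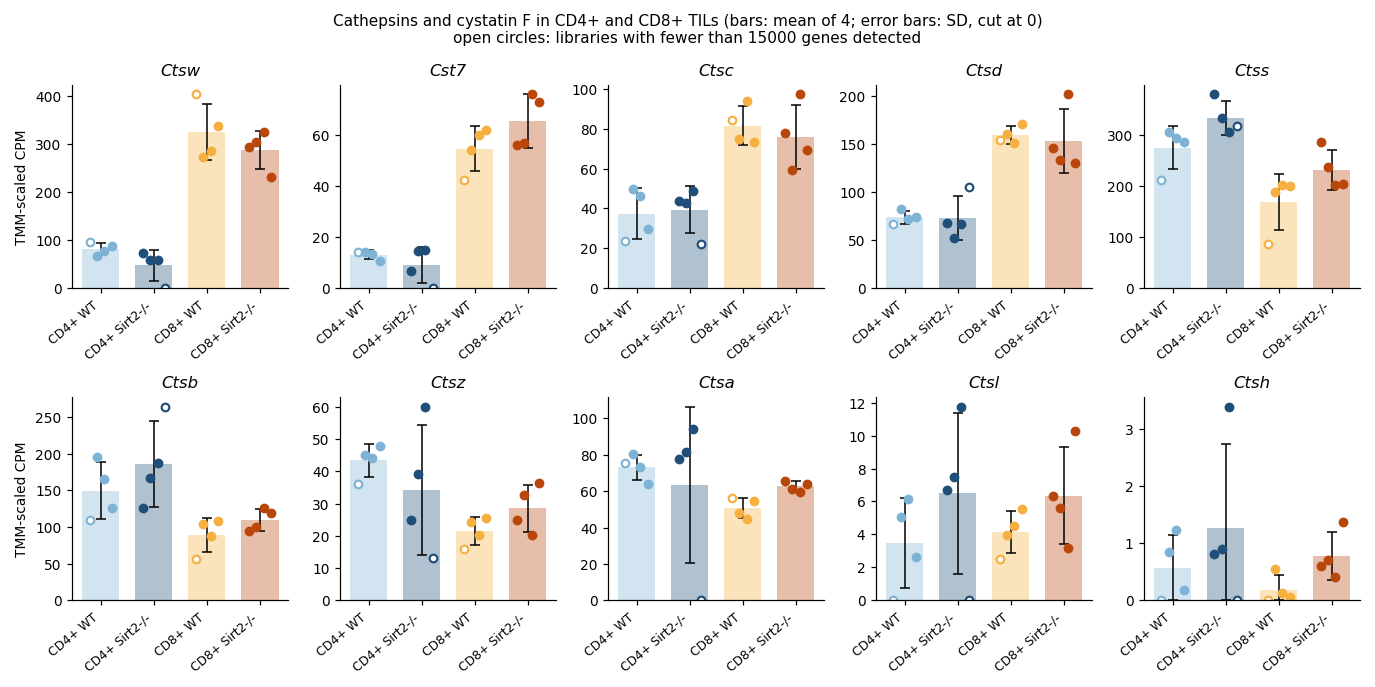
TMM-scaled CPM (y axis, linear, a scale of its own for each gene) of each of the 10 genes in the 4 groups, with 1 point a library, bars at the mean of 4 and error bars of 1 SD; open circles are the libraries with fewer than 15000 genes detected. Ctsw reaches 232 to 402 CPM in CD8+ and at most 96.5 CPM in CD4+ libraries, and Ctss reaches 213 to 381 CPM in CD4+ and 86.4 to 286 CPM in CD8+ libraries.

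Several members share sequence with other annotated genes. Ctsw overlaps Fibp, Ctsb overlaps Fdft1, Ctsz overlaps Nelfcd and Ctsa overlaps Neurl2 and Pltp on the opposite strand, and Ctsc, Ctsl and Ctss overlap noncoding genes or pseudogenes. Ctsd overlaps another gene model on its strand, Gm49369, which had 0 counts in all 16 libraries. The strand setting of the counting and its rule for reads in overlapping genes are not given. Whether the overlaps raised or lowered the counts of these members therefore cannot be told.

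Per kb of exon, the order of the members differed between the cell types. Over the libraries with at least 15000 genes detected, Ctss led in WT CD4+ TILs with 218 ± 7.65 CPM per kb (SD, n = 3), followed by Ctsw with 40.9 ± 5.10 and Ctsd with 32.3 ± 2.28. Ctsd and Ctsz (31.8 CPM per kb on average) did not differ beyond their spread, while Ctsb had 26.9, Ctsa 15.4, Cst7 12.9, Ctsc 7.22, Ctsl 0.714 and Ctsh 0.168 CPM per kb. In WT CD8+ TILs Ctsw (158 ± 18.0 CPM per kb, SD, n = 3) and Ctss (145 ± 5.84) stood side by side within their spread. Ctsd followed with 68.5 ± 4.29, Cst7 with 59.6 ± 4.13, Ctsb with 16.5, Ctsz with 16.2, Ctsc with 13.9, Ctsa with 10.4, Ctsl with 0.722 and Ctsh with 0.0554 CPM per kb. Cystatin F thus moved from the seventh place in CD4+ to the fourth in CD8+ TILs. In Sirt2-/- mice Ctss was at 250 ± 27.7 (n = 3) and Ctsw at 33.5 ± 4.31 CPM per kb in CD4+ TILs, against 172 ± 28.8 and 153 ± 20.9 CPM per kb (n = 4) in CD8+ TILs.

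The ratio of Ctsw to Ctss per kb set the T cell protease against the one shared with myeloid cells in each library. It was 0.158 to 0.326 (median 0.203) in WT CD4+ and 1.01 to 3.35 (median 1.13) in WT CD8+ libraries. In Sirt2-/- mice it was 4.05e-05 to 0.137 (median 0.132) in CD4+ and 0.736 to 1.15 (median 0.866) in CD8+ libraries. No CD4+ library reached the ratio of any CD8+ library. Ctss made up 50.0% to 69.8% of the summed per-kb level of the 10 genes in CD4+ and 14.7% to 38.6% in CD8+ libraries. The ratio of the inhibitor to its target, Cst7 to Ctsc per kb, was 1.68 to 3.54 in WT CD4+ and 2.96 to 5.003 in WT CD8+ libraries, ranges that overlap. This ratio was 0.00471 to 2.03 in CD4+ and 4.24 to 6.204 in CD8+ libraries of Sirt2-/- mice. Its size depends on the exon lengths, 0.986 kb for Cst7 and 5.81 kb for Ctsc. In CPM it was 0.286 to 0.600 in WT CD4+ and 0.502 to 0.849 in WT CD8+ libraries. The Sirt2-/- values in CPM were 0.0008 to 0.344 in CD4+ and 0.719 to 1.05 in CD8+ libraries.

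**Figure D2:**
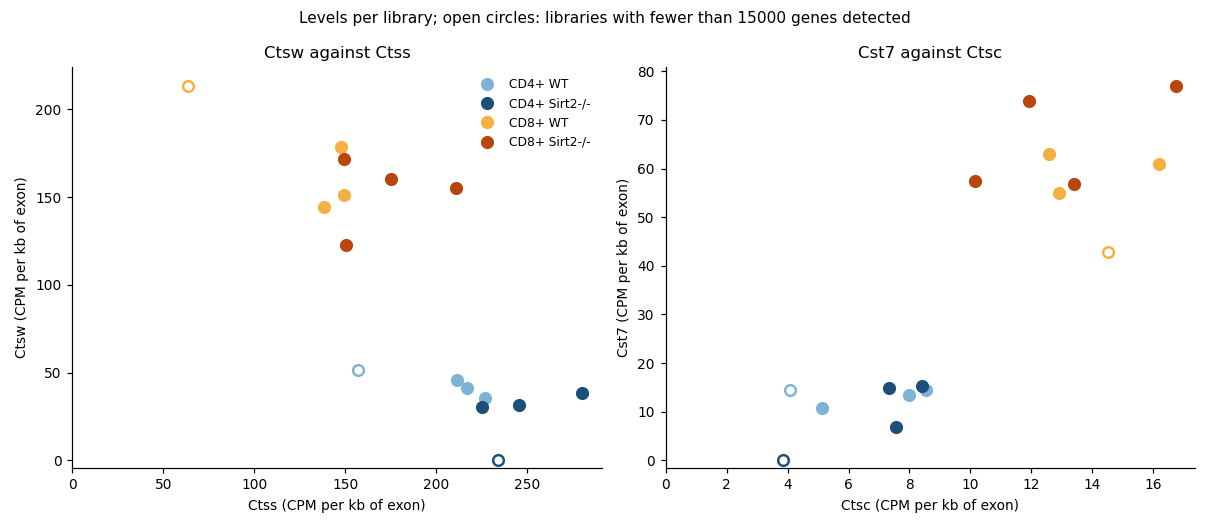
Levels of Ctsw against Ctss and of Cst7 against Ctsc in each of the 16 libraries, both axes linear in CPM per kb of exon and colored by group, with open circles for libraries with fewer than 15000 genes detected. The CD8+ libraries sit at 123 to 213 CPM per kb of Ctsw, above the at most 51.2 CPM per kb of the CD4+ libraries, and the sparse WT CD8+ replicate 1 stands apart at 63.6 CPM per kb of Ctss.

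The 250 bases before the start of Cst7, Ctsc and Ctss are shown because the first and second of these genes had higher and the last lower levels in every CD8+ library. The sequences are those of RefSeq on GRCm38.p6, in which 7 of the 10 members had an entry, each here ending at the base before the annotated start. All lie on the plus strand, at chr2:150570165-150570414, chr7:88277835-88278084 and chr3:95526536-95526785. Capitals mark matches, on either strand, to TGTGGT (RUNX), TCACAC (T-box), GGAAGT (ETS), CACGTG (the core of the lysosomal CLEAR element) or the STAT motif (TTCC and GAA with any 3 bases between).
Cst7: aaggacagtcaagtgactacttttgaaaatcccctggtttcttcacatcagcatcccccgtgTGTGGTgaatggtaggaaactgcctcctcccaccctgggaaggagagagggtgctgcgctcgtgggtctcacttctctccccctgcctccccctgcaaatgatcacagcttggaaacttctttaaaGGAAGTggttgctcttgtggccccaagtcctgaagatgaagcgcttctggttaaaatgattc
Ctsc: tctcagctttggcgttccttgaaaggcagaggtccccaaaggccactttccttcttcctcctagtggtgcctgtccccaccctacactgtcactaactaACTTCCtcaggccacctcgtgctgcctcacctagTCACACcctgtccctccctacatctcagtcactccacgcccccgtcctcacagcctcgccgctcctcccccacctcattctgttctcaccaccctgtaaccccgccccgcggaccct
Ctss: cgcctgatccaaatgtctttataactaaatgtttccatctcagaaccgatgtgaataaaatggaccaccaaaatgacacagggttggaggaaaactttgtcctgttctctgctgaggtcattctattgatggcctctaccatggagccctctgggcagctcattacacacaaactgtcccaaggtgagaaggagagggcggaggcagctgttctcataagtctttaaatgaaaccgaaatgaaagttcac
The Cst7 window held TGTGGT 188 and GGAAGT 62 bases before the start, and the Ctsc window held GGAAGT on the other strand 151 bases and TCACAC 117 bases before it. None of the 5 motifs was in the Ctss window. Of 32851 windows of this length over all genes, 14.0% held TGTGGT, 12.3% TCACAC, 19.7% GGAAGT, 6.02% CACGTG and 3.27% the STAT motif, so that such matches are common. CACGTG was found in the windows of Ctsd (2 matches), Ctsl (1 match) and 1 of 2 windows of Ctsa. Whether any factor bound these sites was not measured.

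CD8+ and CD4+ TILs were compared within each genotype by edgeR's quasi-likelihood test over all genes, and a gene was called at an adjusted p (Benjamini-Hochberg) below 0.05. The comparison sets members of T cells, such as Ctsw and Cst7, beside members shared with myeloid cells, such as Ctss. In WT mice 9 members could be tested and 7 were called, 4 higher and 3 lower in CD8+ TILs, beside 11.9% of the 14892 genes tested, 4.89% higher and 6.96% lower. In 8 of the 9 the libraries of the groups did not overlap, as in 22.7% of all genes tested. The median log2 fold change of the members was 0.16, and that of all genes -0.02.

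Ctsw rose 3.77-fold in WT CD8+ over CD4+ TILs, a log2 fold change of 1.91 (SE 0.161, 95% interval 1.56 to 2.27, edgeR adjusted p = 4.49e-05). Cst7 rose 3.97-fold (log2 1.99, SE 0.204, interval 1.54 to 2.44, edgeR adjusted p = 0.000141). Ctsc and Ctsd each rose 2.06-fold, with log2 intervals of 0.51 to 1.58 and 0.77 to 1.32 and edgeR adjusted p of 0.018 and 0.000413. The inhibitor, the granzyme-activating protease and the lysosomal aspartic protease thus lay on the same side as the T cell protease. Called lower in CD8+ TILs were Ctsz (log2 -1.09, SE 0.211, edgeR adjusted p = 0.0067), Ctsb (-0.82, SE 0.238, 0.0463) and Ctsa (-0.60, SE 0.149, 0.0235). Ctss had a log2 fold change of -0.78 (SE 0.247, interval -1.32 to -0.24) and an edgeR adjusted p of 0.0661. Without the sparse libraries Ctss fell as well (log2 -0.59, interval -0.81 to -0.38, adjusted p = 0.00105), and 8 members were called beside 28.0% of 15694 genes.

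The calls differed in how far they rested on single libraries. Ctsw, Cst7, Ctsd and Ctsz were called whichever library was left out. The call of Ctsb was lost in 7 of 8 such fits, all but that without WT CD4+ replicate 1, and its adjusted p ranged from 0.0203 to 0.134. The call of Ctsa was lost without WT CD4+ replicate 2 or 3 or WT CD8+ replicate 2, 3 or 4 (adjusted p up to 0.140), that of Ctsc without WT CD8+ replicate 3 (0.0626), and Ctss was called without WT CD4+ replicate 1 (0.0421). In 1 model of all 16 libraries only Ctsd (adjusted p = 0.00207) and Ctsc were called, while Ctsw (0.310) and Cst7 (0.232) were not, with the single-read library among those that set the spread.

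In Sirt2-/- mice the same comparison called 0 of 10 members beside 2.24% of the 15787 genes tested by edgeR. At an unadjusted p below 0.05 there were 5 members and 1842 genes, and DESeq2 called 2 members (Ctss and Ctsd) and limma-voom 6. Ctsc, Ctsd, Ctsw and Cst7 were higher and Ctss lower in every CD8+ than in every CD4+ library, 5 of 10 members beside 22.2% of all genes tested. The log2 fold changes were 2.58 for Ctsw (SE 1.25, adjusted p = 0.508), 2.82 for Cst7 (SE 1.21, 0.408) and 1.06 for Ctsd (SE 0.241, 0.0701), and the median of the members was -0.05 against 0.16 for all genes. The SEs of Ctsw and Cst7 were several times those in WT mice.

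Without the sparse Sirt2-/- CD4+ replicate 4, edgeR called 7 members beside 25.4% of 16703 genes, 4 higher (background 13.8%) and 3 lower (11.6%). Ctsw rose 4.45-fold (log2 2.15, interval 1.85 to 2.46, adjusted p = 8.1e-06) and Cst7 5.26-fold (log2 2.40, interval 1.75 to 3.04, 0.0005). Ctsd (log2 1.26, adjusted p = 0.000403) and Ctsc (0.71, 0.00629) rose as well. Ctss (-0.58, adjusted p = 0.00966), Ctsb (-0.58, 0.0144) and Ctsa (-0.47, 0.00599) fell. With n = 3 against 4 the same 4 members as in WT mice were thus called higher. Ctsz, called lower in WT mice, had a log2 fold change of -0.57 with an interval of -1.26 to 0.11. Ctsl and Ctsh did not pass the threshold between the cell types in either genotype, with or without the sparse libraries.

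**Figure D3:**
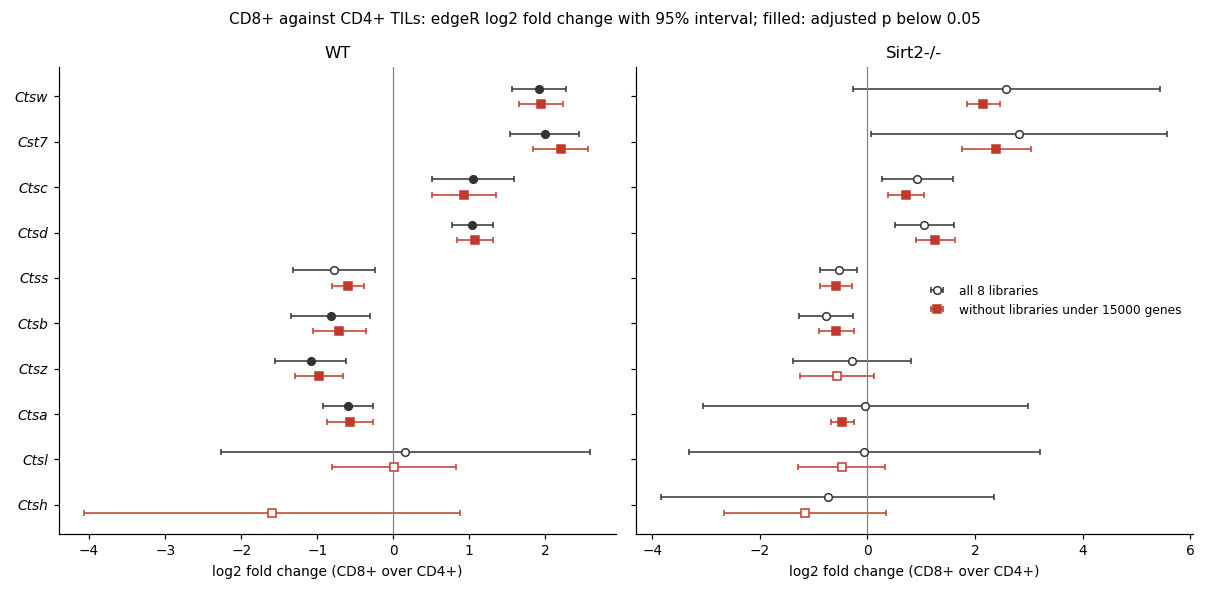
Log2 fold change of each member in CD8+ over CD4+ TILs (x axis; points with 95% intervals) in WT and in Sirt2-/- mice, with all libraries and without those with fewer than 15000 genes detected; filled points have an edgeR adjusted p below 0.05. With all libraries of WT mice Ctsw (1.91) and Cst7 (1.99) lie farthest to the right and Ctsz (-1.09) to the left, Ctsh (-1.59) being tested only without the sparse ones, and in Sirt2-/- mice the intervals of Ctsw and Cst7 narrow from -0.27 to 5.43 and 0.07 to 5.57 to 1.85 to 2.46 and 1.75 to 3.04.

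Loss of SIRT2 did not move any member past the threshold in CD8+ TILs. edgeR called 0 of 10 members and 1 of 15302 genes (0.00654%), with 1 member (Ctsa) and 579 genes at an unadjusted p below 0.05. DESeq2 and limma-voom called 0 members, with 28 and 5 genes. Ctsa had the smallest p of the members. Its Sirt2-/- libraries (59.7 to 65.8 CPM) lay above all WT libraries (44.6 to 56.0 CPM), with a log2 fold change of 0.30 (SE 0.107, interval 0.07 to 0.54, edgeR adjusted p = 0.986). Ctss had a log2 fold change of 0.46 (interval -0.05 to 0.97), and its groups were apart only by 202.65 against 202.979 CPM. Groups without overlap were found for these 2 of 10 members and for 2.95% of all genes tested.

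Ctsw and Cst7 had small log2 fold changes of opposite sign in these CD8+ TILs. Ctsw had a log2 fold change of -0.17 (SE 0.144, interval -0.49 to 0.14) and Cst7 of 0.26 (SE 0.151, interval -0.07 to 0.59), and for both the groups overlapped. Without the sparse WT CD8+ replicate 1 the values were -0.05 (interval -0.31 to 0.22) and 0.16 (interval -0.11 to 0.43). Ctss then had 0.25 (interval -0.02 to 0.51) and Ctsa 0.36 (interval 0.14 to 0.58, edgeR adjusted p = 0.895). Ctsc (-0.11) and Ctsd (-0.06) were near 0, Ctsb (0.31), Ctsz (0.41), Ctsl (0.62) and Ctsh (2.03) were positive, and the median of the members was 0.30 against 0.01 for all genes. Leaving out 1 library moved some of these values. Without the sparse WT replicate 1 Ctsb had 0.14, without Sirt2-/- replicate 4, the CD8+ library with the highest marker sum, Ctsl had 0.28 and Ctsz 0.26, and without WT replicate 2 Ctsh had 3.53. Over the same groups all 12 macrophage and monocyte markers that passed the filter had positive log2 fold changes, with a median of 2.35 and 0 called. The sparse WT replicate 1, with 12 of the 15 markers at 0, was included, and no value without it is given. A marker could pass the filter through the Sirt2-/- libraries, as C1qb did with 15 to 102 counts there and 0 to 13 in WT. The signs are thus shaped in part by the filter. The part of the markers in the values of the members was not tested.

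In CD4+ TILs edgeR called 0 members and 0 of 15070 genes (0.0%) between the genotypes, with 0 members and 190 genes at an unadjusted p below 0.05. Sirt2 itself, at 40.7 to 75.6 CPM in WT and 0 to 12.2 CPM in Sirt2-/- libraries, was thus not called either. A lack of calls in this comparison therefore does not show a lack of change. DESeq2 and limma-voom called 0 members, with 7 and 4 genes. All 10 members overlapped between the genotypes, whereas 3.13% of all genes tested did not. Ctsw had a log2 fold change of -0.78 with an interval of -3.53 to 1.98, and Cst7 of -0.51 with -3.42 to 2.41, both with the library of a single read of each included. Without the sparse libraries Ctsw had -0.29 (interval -0.61 to 0.04) and Cst7 -0.07 (interval -0.74 to 0.60). Ctss had 0.28 (interval -0.10 to 0.66) with and 0.20 (interval -0.06 to 0.47) without them. Of the other members Ctsb had 0.31 (interval -0.26 to 0.89), Ctsc 0.08 (-0.79 to 0.95), Ctsd -0.01 (-0.55 to 0.53), Ctsz -0.33 (-1.33 to 0.67), Ctsa -0.19 (-3.12 to 2.73), Ctsl 0.90 (-3.20 to 5.003) and Ctsh 1.16 (-2.93 to 5.24). Without the sparse libraries these were -0.02 for Ctsb, 0.11 for Ctsc, -0.28 for Ctsd (interval -0.59 to 0.02), -0.14 for Ctsz, 0.22 for Ctsa, 0.90 for Ctsl (interval 0.07 to 1.72, edgeR adjusted p = 0.99) and 1.16 for Ctsh. Ctsl was then the 1 member, beside 697 genes, with an unadjusted p below 0.05, and 0 members were called. The median of the members was 0.03 and that of all genes -0.11 with all libraries, and the 10 macrophage and monocyte markers tested were all positive with a median of 1.20 and 0 called. This marker result includes the sparse libraries, WT replicate 1 with 14 and Sirt2-/- replicate 4 with 13 of the 15 markers at 0.

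Whether the genotype effect differed between CD8+ and CD4+ TILs was tested over all 16 libraries. edgeR called 0 members and 0 of 17270 genes (0.0%), with 0 members and 342 genes at an unadjusted p below 0.05, while DESeq2 called 0 members and 2 genes and limma-voom 0 of either. Without the sparse libraries the difference was 0.24 for Ctsw (interval -0.16 to 0.64), 0.23 for Cst7 (interval -0.45 to 0.90) and 0.05 for Ctss (interval -0.32 to 0.41) on the log2 scale. It was 0.16 for Ctsb, -0.19 for Ctsc, 0.21 for Ctsd, -0.46 for Ctsl, 0.43 for Ctsz, 0.13 for Ctsa and 0.47 for Ctsh. The intervals of all 10 members include 0.

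**Figure D4:**
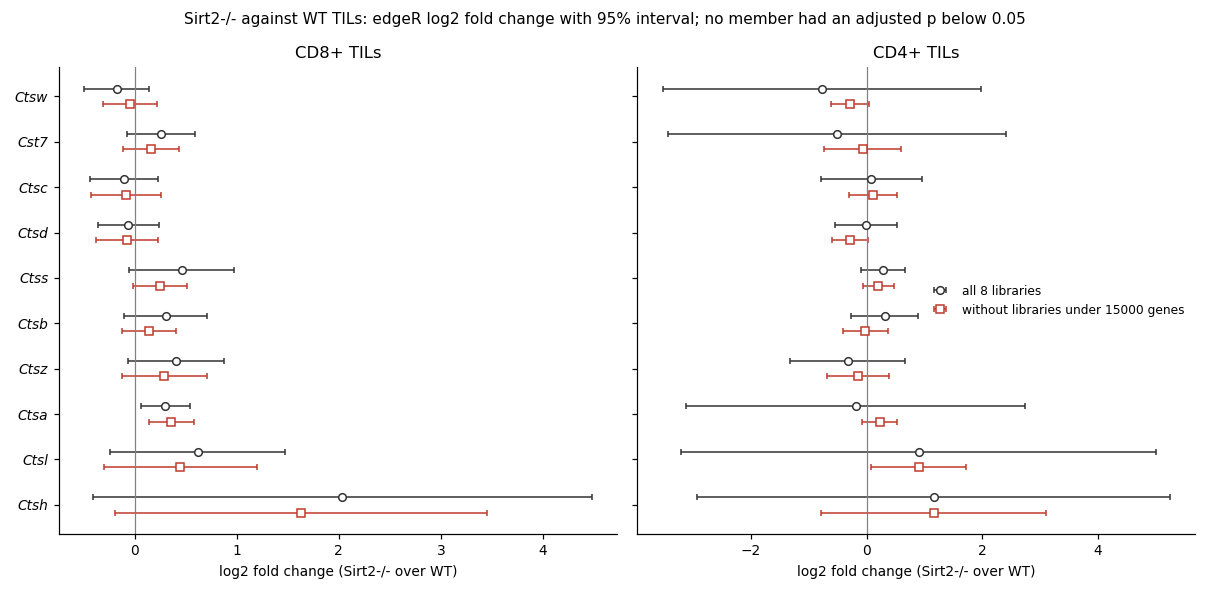
Log2 fold change of each member in Sirt2-/- over WT mice (x axis; points with 95% intervals) in CD8+ and in CD4+ TILs, with all libraries and without those with fewer than 15000 genes detected. All points are open, since no adjusted p is below 0.05, and in CD4+ TILs the intervals of Ctsw (-3.53 to 1.98) and Cst7 (-3.42 to 2.41) are far wider than those in CD8+ TILs (-0.49 to 0.14 and -0.07 to 0.59).

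All 10 members were set against the mean log2 CPM of the 15 macrophage and monocyte markers, in the 8 libraries of each cell type. This mean falls with each marker at 0 and can differ from the marker sum. Sirt2-/- CD4+ replicate 4 had the highest sum (149 CPM) but a mean of only -3.11, with 13 of 15 markers at 0. The markers hold none of the members, and 40 coefficients were adjusted together. Past an adjusted p of 0.05 were 6 of them, from Ctsh, Ctsz and Ctsl. Ctsh had r = 0.889 (exact permutation p = 0.00193, adjusted p = 0.0223) and rho = 0.952 (exact permutation p = 0.00114, adjusted p = 0.0223) in CD8+ TILs. In CD4+ TILs it had r = 0.894 (exact permutation p = 0.00352, adjusted p = 0.0235) and rho = 0.946 (exact permutation p = 0.00129, adjusted p = 0.0223). Ctsz in CD8+ TILs had r = 0.899 (exact permutation p = 0.00352, adjusted p = 0.0235) and rho = 0.762 (0.0368 and 0.105, likewise by exact permutation). Ctsl in CD4+ TILs had r = 0.859 (exact permutation p = 0.00223, adjusted p = 0.0223) and rho = 0.850 (0.0115 and 0.0608, likewise by exact permutation).

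These relations rested in part on the end libraries. Without the 2 libraries farthest from the median marker level r was 0.773 for Ctsh in CD8+ and 0.761 in CD4+ TILs, 0.652 for Ctsz and 0.812 for Ctsl, and 0 of the 40 adjusted p were below 0.05. The libraries left out were Sirt2-/- CD8+ replicate 4 and WT CD8+ replicate 1, and Sirt2-/- CD4+ replicate 3 and WT CD4+ replicate 1, of which the WT ones were sparse. The sparsest library, Sirt2-/- CD4+ replicate 4, stayed in. Ctss, by far the most abundant of the shared members, had r = 0.628 in CD8+ TILs (exact permutation p = 0.125, adjusted p = 0.226) and rho = 0.810 (exact permutation p = 0.0218, adjusted p = 0.087), and r = 0.604 without the 2 libraries farthest out. In CD4+ TILs it had r = 0.462 and rho = 0.167 (exact permutation p = 0.239 and 0.703, adjusted p = 0.319 and 0.703). Ctsw in CD8+ TILs had r = -0.814 (exact permutation p = 0.0239, adjusted p = 0.087) and rho = -0.524 (exact permutation p = 0.197, adjusted p = 0.271), and r = 0.109 without the 2 libraries farthest out. Since the markers were higher in Sirt2-/- CD8+ libraries, the coefficients were also taken within genotypes, an alternative chosen after seeing the data, with both values centered on their genotype mean and libraries permuted within each genotype. With the sparse libraries kept, 6 of 40 had an adjusted p below 0.05. They were r and the rank coefficient of Ctsh (0.897 and 0.910) and Ctsl (0.878 and 0.910) in CD4+ TILs (exact permutation, adjusted p = 0.0347 each), r of Ctsc (0.804, exact permutation, adjusted p = 0.0463) in CD4+ TILs and r of Ctsz (0.872, exact permutation, adjusted p = 0.0417) in CD8+ TILs. Within genotypes Ctsh in CD8+ TILs had r = 0.758 (exact permutation p = 0.0278, adjusted p = 0.0855). Both sparse CD4+ libraries, WT replicate 1 and Sirt2-/- replicate 4, had 0 counts of Ctsh and of Ctsl. The same 2 libraries had the lowest Ctsc of the CD4+ libraries, 23.7 and 22.4 CPM. Without the sparse libraries, and not within genotypes, r in CD4+ TILs was 0.684 for Ctsh and 0.706 for Ctsl (exact permutation, adjusted p = 0.304 each). In that setting r was 0.324 for Ctsc in CD4+ TILs (exact permutation, adjusted p = 0.627). For Ctsz in CD8+ TILs it was 0.831 (exact permutation, adjusted p = 0.192).

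**Figure D5:**
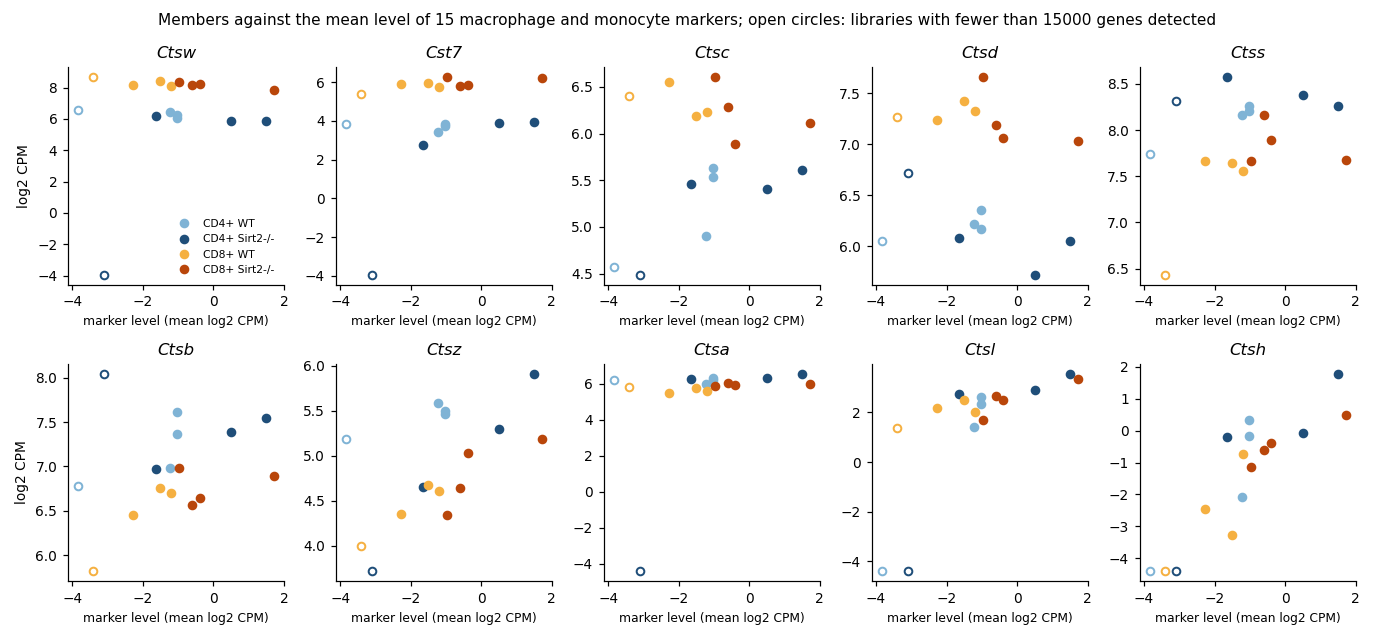
Log2 CPM of each member (y axis) against the mean log2 CPM of 15 macrophage and monocyte markers (x axis) in the 16 libraries, colored by group, with open circles for libraries with fewer than 15000 genes detected. Ctsh climbs with the markers in CD8+ (r = 0.889) and CD4+ libraries (r = 0.894). Ctss, at 86.4 to 381 CPM over the 16 libraries, has r = 0.628 and rho = 0.810 in CD8+ libraries. In CD4+ libraries Ctss has r = 0.462 and rho = 0.167, and none of these 4 coefficients has an adjusted p below 0.05 by exact permutation.

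In these bulk samples fewer cells of a type and less RNA per cell cannot be told apart, which holds for every level above. In the sparse libraries, which had few genes detected, most macrophage markers were at 0, while Ctss was not. Replicate 1 of the WT CD4+ group had no count for 14 of the 15 markers, 15.9 CPM of Apoe, the highest of its group, and 213 CPM of Ctss. Replicate 4 of the Sirt2-/- CD4+ group had none for 13 of 15, while Apoe (138 CPM) and Lyz2 (11.6 CPM) were at their highest of all libraries, with Ctss at 318 CPM. Replicate 1 of the WT CD8+ group had none for 12 of 15, 12.9 CPM of Apoe, the highest of its group, and 86.4 CPM of Ctss. Among the others, WT CD8+ replicate 3 had the lowest marker sum, 7.39 CPM, and 203 CPM of Ctss. The part of macrophages in the level of Ctss was not tested.

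Genes of the same pathways were read beside the members in the WT comparison of cell types. Of 17 granzyme, perforin and granule genes 15 were tested, of which 5 rose and 2 fell in CD8+ TILs, beside the 11.9% called of all genes, with a median log2 fold change of 1.11. Those that rose included Nkg7 (log2 2.57, edgeR adjusted p = 2.2e-05), a granule membrane protein, Gnptab (1.49, 0.00131), which starts the mannose 6-phosphate tag of lysosomal enzymes, granzyme F (Gzmf, 8.41, 0.00197) and perforin (Prf1, 3.71, 0.0157). Stx11 (-1.05, 0.00545), a syntaxin of granule release, and Srgn (-0.62, 0.0283), the granule proteoglycan serglycin, fell. Of 12 genes of class II presentation 11 were tested, none rose and 2 fell, with a median of -1.39. These were the invariant chain Cd74 (-2.45, edgeR adjusted p = 0.00189), the substrate of cathepsin S, and the asparagine endopeptidase Lgmn (-3.53, 0.00498).

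Other protease inhibitors were split. Of 15 cystatins and other inhibitors 8 were tested, 1 rose and 2 fell, with a median log2 fold change of -0.27. Serpinb9, the inhibitor of granzyme B, rose (1.16, edgeR adjusted p = 0.0293), and Spock2 (-1.96, 0.000799) and Serpinb6a (-0.91, 0.0462) fell. None of the 3 other cathepsins tested (of 5 listed) was called, with a median of -0.39, but without the sparse libraries Ctse, an aspartic protease, fell (-0.91, edgeR adjusted p = 0.00437). Among 38 other lysosomal genes 37 were tested and 1 rose, Igf2r (0.84, 0.00401), the receptor for mannose 6-phosphate, while Grn (-1.04, 0.00594) and the neuraminidase Neu1 (-1.23, 0.0256) fell. These 3 of 37 were a smaller share than the 11.9% of all genes, and the median of this list was -0.26, against -0.02 for all genes. Without the sparse libraries, where 28.0% of all genes were called, 8 granule genes rose and 2 fell of 15 tested, 1 inhibitor rose and 2 fell of 8, 4 class II genes fell of 11, 4 lysosomal genes rose and 6 fell of 37, and 1 other cathepsin fell of 4.

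In Sirt2-/- mice only Prf1 (log2 3.01, edgeR adjusted p = 0.00963) and Igf2r (1.35, 0.0366) of these 5 lists were called between the cell types. With the sparse CD4+ replicate 4 left out, 25.4% of all genes were called. The granule list then had 7 genes higher and 2 lower of 16 tested, the inhibitors 2 and 2 of 9, class II presentation 1 and 1 of 12, the other lysosomal genes 3 and 4 of 38, and the other cathepsins 0 and 1 of 4. The shares of class II presentation and of the other lysosomal genes were below that of all genes, and that of the other cathepsins, 1 of 4, was near it. Between genotypes no gene of any of the 5 lists was called by edgeR in either cell type.

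The genes with levels most like those of Ctsw, Cst7, Ctss and Ctsb were read off from log2 CPM among 8324 genes with at least 10 CPM on average. The points share their libraries and fall into CD4+ and CD8+ groups, so the coefficients are descriptions. Over the 16 libraries Ctsw was most like Npm3 (r = 0.997), Nod1 (0.994), Ccdc86 (0.993), Anapc15 (0.993) and Shmt2 (0.992), and Cst7 most like Nkg7 (0.995), Selenon (0.993), Bub1 (0.988), Magohb (0.987) and Setbp1 (0.986). Ctss was most like Cyp2s1 (0.962) and the interferon-inducible GTPases Igtp (0.960) and Iigp1 (0.957), then H2-T24 (0.952) and Samhd1 (0.950). Among the genes most like Ctsb were Ptprj (0.934), Nab2 (0.925), Creb3l2 (0.913) and Slc25a24 (0.912). Over the 13 libraries with at least 15000 genes detected the leading genes changed, to Dapk2 (0.991) for Ctsw, Chsy1 (0.986) for Cst7, Samhd1 (0.985) for Ctss and Tigit (0.966) for Ctsb. Nkg7 then stood in the 10th place for Cst7 (0.979). For Ctsw, Npm3, Nod1, Ccdc86, Anapc15 and Shmt2 then stood in places 11, 31, 77, 327 and 92. The 16 libraries include the one with a single read of Ctsw and of Cst7.

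Among the members themselves, over those 13 libraries, Ctsw went with Ctsd (r = 0.966) and Cst7 (0.936), and Cst7 with Ctsd (0.919) and Ctsc (0.880). Ctss went against Cst7 (-0.884) and Ctsw (-0.846) and with Ctsa (0.833). Ctsl and Ctsh, the members of lowest level, went together (0.681) and were only loosely tied to Cst7 (-0.11 and -0.34). These coefficients pool both cell types and so carry the difference between CD8+ and CD4+ TILs given above. None was taken within a cell type.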

How the data were processed

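RNA of CD4+ and CD8+ TILs had been made into 16 libraries with a stranded total RNA kit for low input (1 ng each) and read as pairs of 100 bases. The deposited table gives counts, whole numbers of reads assigned to each gene, which the authors had not normalized. The submitters' processing notes name STAR, HTSeq and the mm10 build, and their versions, like the strand setting, are not given in the sources used here. All 55450 gene identifiers are those of GENCODE mouse release M21 (GRCm38), from which exon lengths and positions were taken. Groups follow the genotype and cell type of the labels.

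edgeR 4.0.16 under R 4.3.3 served for the main tests, with TMM scaling, filterByExpr, robust quasi-likelihood fits of the 8 libraries compared (16 for the difference of differences), two-sided tests and Benjamini-Hochberg adjustment over all genes tested. Intervals are 95% intervals from the fitted degrees of freedom. Log2 CPM used a prior count of 2. The edgeR function was tested on simulated data with known changes, modeled on the WT libraries with at least 15000 genes detected. Fits with the sparse libraries and the other functions were not tested so. All 10 members are named in every comparison; of other lists at most the 4 called genes with the smallest adjusted p in each direction are named. The members and the gene lists were chosen with earlier results of these data known. Labels do not tie libraries to single animals, so p-values measure the spread between these samples. Reads carry no molecular identifiers, so the limit of 3 counts behind a value of 0 reflects counting error alone. Alternatives were DESeq2 1.42.0, limma-voom (limma 3.58.1) with sample weights, other scaling and filters, 1 model of 16 libraries, the replicate number as a block, leaving out each library in turn, and leaving out the 3 libraries with fewer than 15000 genes detected. Correlations used exact permutation of 8 libraries, two-sided, and, as an alternative added after seeing the data, permutation within genotypes. For likeness, the 5 genes with the highest r over 16 libraries are named for 4 members, of which 1 is not reported here.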

Additional observations from a re-analysis of the deposited data

Results flagged for a closer look

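Ctss in WT CD8+ replicate 1 stood apart from the other libraries of its group, with 86.4 CPM against 188 to 203 CPM. The gap made up 0.874 of the range of the group, above Dixon's 95% critical value for 4 libraries. The library is 1 of the 3 with fewer than 15000 genes detected, and its Ctsw level, 402 CPM, was the highest of all 16 libraries. It was the only such case among 40 groups of 4 libraries, where chance gives about 2.0. The part of the low number of genes in this value was not tested.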

How the results depend on the processing

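Between cell types in WT mice edgeR called 1765 genes, against 2651 by DESeq2, 5504 by limma-voom, 811 in the model of 16 libraries, 4394 without the sparse libraries and 1022 to 2767 with 1 library left out. The 7 members called became 2 in the model of 16 libraries and 4 to 8 with 1 library left out. In Sirt2-/- mice the 354 genes became 1339 by DESeq2, 4481 by limma-voom, 907 with at least 10 counts in every library, 781 in the model of 16, 4250 without the sparse library and 111 to 4250 with 1 left out, the highest without CD4+ replicate 4. The 0 members became 2, 6, 2, 1, 7 and 0 to 7 in the same order. Between genotypes in CD8+ TILs the 1 gene became 28 (DESeq2), 5 (limma-voom), 5 (no filter), 7 (without the sparse library) and 0 to 7 with 1 left out, and in CD4+ TILs the 0 genes became 7, 4 and 6 (without the sparse libraries). For the difference of differences DESeq2 gave 2 genes. Members called between genotypes stayed at 0 under all of these.

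Some changes near 0 turned in sign. In CD4+ TILs between genotypes limma-voom and the fit without the sparse libraries gave -0.018 and -0.019 for Ctsb and 0.17 and 0.22 for Ctsa. Leaving out 1 library gave -0.44 to 0.23 for Ctsa, -0.093 to 0.28 for Ctsc and -0.22 to 0.11 for Ctsd there, and -0.24 to 0.0046 for Ctsc and -0.21 to 0.0046 for Ctsd in CD8+ TILs. Between cell types Ctsl in WT mice was at -0.16 by limma-voom and at -0.16 to 0.61 with 1 library left out. In the knockout, leaving out 1 library gave -0.47 to 0.21 for Ctsa, -0.48 to 0.39 for Ctsl, -0.57 to 0.12 for Ctsz and -1.16 to 0.41 for Ctsh. The 6 coefficients with the macrophage markers past the threshold became 0 without the 2 farthest and 0 without the sparse libraries. They numbered 6 within genotypes, where the sparse libraries were kept. Pearson coefficients that turned in sign, none of them among the 6, were r = 0.109 for Ctsw and -0.109 for Cst7 in CD8+ TILs, -0.018 for Ctss and -0.435 for Ctsb in CD4+ TILs without the 2 farthest libraries, and -0.159 for Ctss and -0.819 for Ctsw in CD4+ TILs without the sparse ones. Within genotypes that of Ctsa in CD8+ TILs turned as well, from 0.571 to -0.0905. The cause was not tested.

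Libraries of the same replicate number were not paired by the labels. Their residuals correlated by -0.08 to 0.09 between genotypes, by 0.098 to 0.13 between WT cell types, where each library was most like its own number, and by -0.02 to 0.15 in Sirt2-/- mice. With the replicate number as a block 108 genes were called between Sirt2-/- cell types, with log2 changes of 0.26 for Ctsl and 0.54 for Ctsa, and 4 between genotypes in CD8+ TILs. In WT cell types the block called Ctss (adjusted p = 0.0178) and not Ctsa (0.0551), and kept the number of members at 7. The 4 libraries a group and the 3 sparse libraries limit the precision of Ctsw, Cst7 and Ctsa in CD4+ TILs, and genes at a few CPM such as Ctsh limit what a fold change can show.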
